A study of Mus musculus with 10 samples.

Results

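Nrn1, Klhl34, Gnb3 and Bex1 are 4 genes selected because their signal was low in the right ventricle (RV) arrays of a comparison of mouse heart regions. Each gene was found by matching the array's RefSeq accessions to mouse gene symbols, each had 1 probe, and they are 4 of the 22911 genes that could be named on the array. The samples were total RNA of the RV, of the left ventricle (LV) and of the septum between them in C57BL/6N mice, with 4 RV, 3 LV and 3 septum arrays. No treatment, disease model or transgene appears in the sample labels, and different animals were used for each experiment. The labels give neither age nor sex. The comparison addresses which genes differ between the ventricles and the septum of the mouse heart. Bulk tissue was measured, so fewer cells of a type and less RNA per cell cannot be told apart in any of the differences below.

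The 4 genes belong to unrelated families. Nrn1 encodes neuritin, a small protein anchored to the cell surface that promotes the outgrowth of neurites and is induced by neural activity and by neurotrophins. Gnb3 encodes a beta subunit of the heterotrimeric G proteins, which carry signals from receptors in the membrane to enzymes and ion channels; this subunit is best known from photoreceptors of the retina. Bex1 is a small X-linked gene first described in brain, whose protein takes part in signalling from a neurotrophin receptor. Klhl34 encodes a kelch-like protein, and many proteins of that family bring substrates to ubiquitin ligases built on cullin 3.

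The arrays were of similar brightness, with a 75th percentile signal between 718 and 1004 before scaling, and between 53.7% and 64.0% of spots well above background. A level here is the log2 of a probe's signal over its array's 75th percentile, which compares arrays for 1 probe and not 1 gene with another. All 4 genes were well above background on all 10 arrays. Replicates 1 and 2 of each region lay on slide 1, and the third replicates with RV replicate 4 lay on slide 2. The summed level of the 10 cardiomyocyte markers was 12.09 to 12.19 in the RV, 12.19 to 12.36 in the LV and 12.07 to 12.33 in the septum, so cardiac muscle RNA was abundant in every array. Xist was not well above background on any array, while each of the Y-linked genes Ddx3y, Eif2s3y, Kdm5d and Uty had a probe that was well above it on all 10; Klhl34 and Bex1 are X-linked, and this pattern of sex-linked transcripts was shared by the regions.

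The genes were chosen from the RV arrays, so the differences of the RV from the LV and from the septum are given as a description, without a test. In every one of the 4 genes the highest RV array lay below the lowest LV array and below the lowest septum array. Across the 14654 genes tested, 4.97% differed between RV and LV and 2.70% between RV and septum at an adjusted p below 0.05. These shares are for calls, and the share of all genes whose RV arrays lie apart in this way is not given here. Nothing can be read from the 4 genes against these shares, or from their separation, since that contrast selected them.

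Nrn1 had the widest separation of RV from LV, while its separation of RV from septum was smaller than that of Gnb3 and Bex1. Its level in RV replicates 1 to 4 was -1.51, -1.92, -2.10 and -1.77, in LV replicates 1 to 3 it was 1.46, 0.94 and 1.40, and in septum replicates 1 to 3 it was 0.31, -0.13 and -0.15. The RV arrays were lowest, the septum arrays lay between, and the LV arrays were highest, with no overlap between any of the 3 regions. The mean was -1.82 ± 0.25 (SD, n = 4) in the RV, 1.27 ± 0.29 (n = 3) in the LV and 0.010 ± 0.26 (n = 3) in the septum. The RV level was lower than the LV level by a difference of -3.09 (SE 0.18), which is 8.51-fold, and lower than the septum level by -1.83 (SE 0.18), or 3.56-fold. Only 1 of the 14654 genes had a more negative difference between RV and LV.

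Gnb3 separated the RV from both other regions alike. Its level in RV replicates 1 to 4 was -1.79, -1.97, -1.13 and -1.75, against 0.48, 0.33 and 0.23 in the LV and 0.40, 0.45 and 0.46 in the septum. RV replicate 3 was the highest of the RV arrays and was still 1.37 below the lowest LV array. The LV and septum arrays overlapped, and the septum arrays were within 0.060 of each other. The RV mean was -1.66 ± 0.36 (SD, n = 4), the LV mean 0.35 ± 0.13 (n = 3) and the septum mean 0.44 ± 0.032 (n = 3). The difference was -2.01 (SE 0.17; 4.02-fold) between RV and LV and -2.10 (SE 0.17; 4.28-fold) between RV and septum.

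Bex1 varied least among the RV arrays. Its level in RV replicates 1 to 4 was -2.55, -2.73, -2.67 and -2.72, in the LV it was -0.75, -0.92 and -0.48, and in the septum -0.74, -0.94 and -0.57. The RV arrays spanned 0.18 and the LV and septum arrays overlapped over most of their range. The mean was -2.67 ± 0.083 (SD, n = 4) in the RV, -0.72 ± 0.22 (n = 3) in the LV and -0.75 ± 0.19 (n = 3) in the septum. The RV level differed by -1.95 (SE 0.12; 3.87-fold) from the LV and by -1.92 (SE 0.12; 3.78-fold) from the septum.

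Klhl34 was the most variable of the 4 genes. Its level in RV replicates 1 to 4 was -3.51, -2.84, -1.94 and -2.38, in the LV it was -1.04, -0.63 and -0.29, and in the septum -1.25, -0.89 and -0.45. The RV arrays spanned 1.58, and RV replicate 3 lay 0.69 below the lowest septum array. The mean was -2.67 ± 0.67 (SD, n = 4) in the RV, -0.65 ± 0.38 (n = 3) in the LV and -0.86 ± 0.40 (n = 3) in the septum. The difference from the LV was -2.01 (SE 0.35; 4.04-fold) and that from the septum -1.81 (SE 0.35; 3.50-fold). Its residual SD across arrays was at percentile 95.6 of the probes tested, while that of Nrn1, Gnb3 and Bex1 was at percentile 75.2, 71.9 and 47.1.

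**Figure D1:**
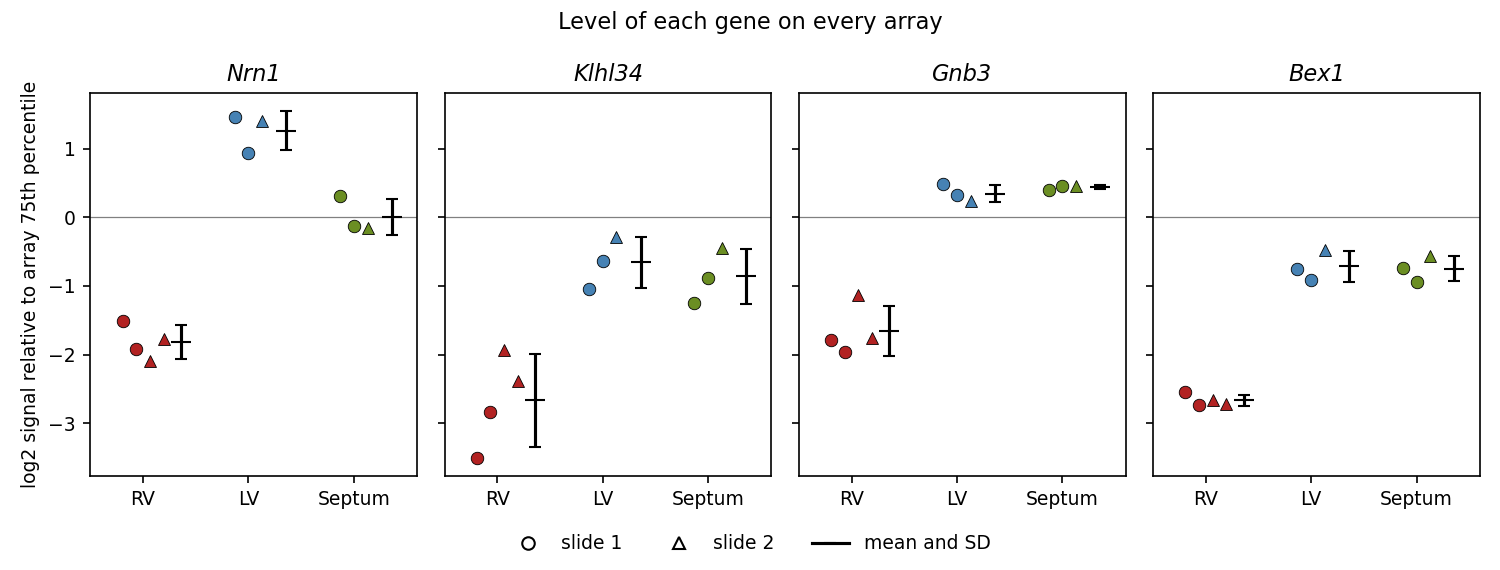
Level of Nrn1, Klhl34, Gnb3 and Bex1 on each array, as log2 signal relative to the 75th percentile of the array, by region; circles are slide 1, triangles slide 2, and the bars are the mean and SD of 4 RV, 3 LV and 3 septum arrays. The RV arrays lie below all LV and septum arrays in each panel, and the septum arrays lie between the others for Nrn1 alone of the 4.

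The signals behind the RV values were low. Signals here are before scaling but after the scanner software subtracted background. The RV signal of Klhl34 was 48.6, 76.7, 184 and 129 in replicates 1 to 4. The local spot background, already taken off, was 42, 37, 28.5 and 25. The RV signals of Bex1 lay between 82.6 and 111, those of Gnb3 between 141 and 322, and those of Nrn1 between 146 and 198. LV signals were 250 to 515 for Klhl34, 294 to 453 for Bex1, 698 to 740 for Gnb3 and 1065 to 1660 for Nrn1. An alternative started from the median spot signal, corrected background by normexp, which models background and signal together, and added an offset of 50, which by itself shrinks folds of dim probes. With it the difference between RV and LV was -2.55 for Nrn1, -1.67 for Gnb3, -1.39 for Klhl34 and -1.36 for Bex1.

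The difference between septum and LV is made from arrays other than the RV arrays that selected the genes, and it was tested, although the RV arrays enter the estimate of the spread behind its SE and p. No probe of 30243 was called in it (0% at an adjusted p below 0.05 by limma). An unadjusted p below 0.05 was found for 863, a smaller share than this threshold gives without any difference. The test named in the study's methods, with Tukey's correction, gave 435 before and 168 after Benjamini-Hochberg adjustment. Nrn1 was lower in the septum by -1.26 (SE 0.20, 95% interval -1.69 to -0.82; 2.39-fold), with an unadjusted p of 9.69e-05 and an adjusted p of 0.217. The highest septum array was 0.63 below the lowest LV array, and the arrays of the same replicate number differed by -1.15, -1.07 and -1.55. Of the 20 alternatives, those with a block and those without 1 RV array leave the difference at -1.26 by construction. Under the others it kept its sign, from -1.55 to -1.10. Over the 20 alternatives the adjusted p by limma ran from 0.00971 to 0.691. The lowest of these came from a model in which replicate number was a random block, and the lowest of the other 19 was 0.112. The order RV, septum, LV of Nrn1 was thus free of overlap, while its step from septum to LV did not pass the test across all probes.

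For the other 3 genes the septum and LV arrays overlapped. The septum differed from the LV by -0.21 for Klhl34 (95% interval -1.06 to 0.64), by 0.091 for Gnb3 (-0.32 to 0.51) and by -0.033 for Bex1 (-0.33 to 0.26), each with an adjusted p of 1. The interval of Klhl34 was the widest. Mesothelium markers moved with region here, with a summed level of 2.21 to 2.91 in the LV and 0.55 to 1.75 in the septum over the 7 tested of 8. Atrial markers, 5 tested of 6, summed to 6.67 to 7.23 in the LV and 6.86 to 9.22 in the septum. The part of these cell types in the Nrn1 difference was not tested.

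**Figure D2:**
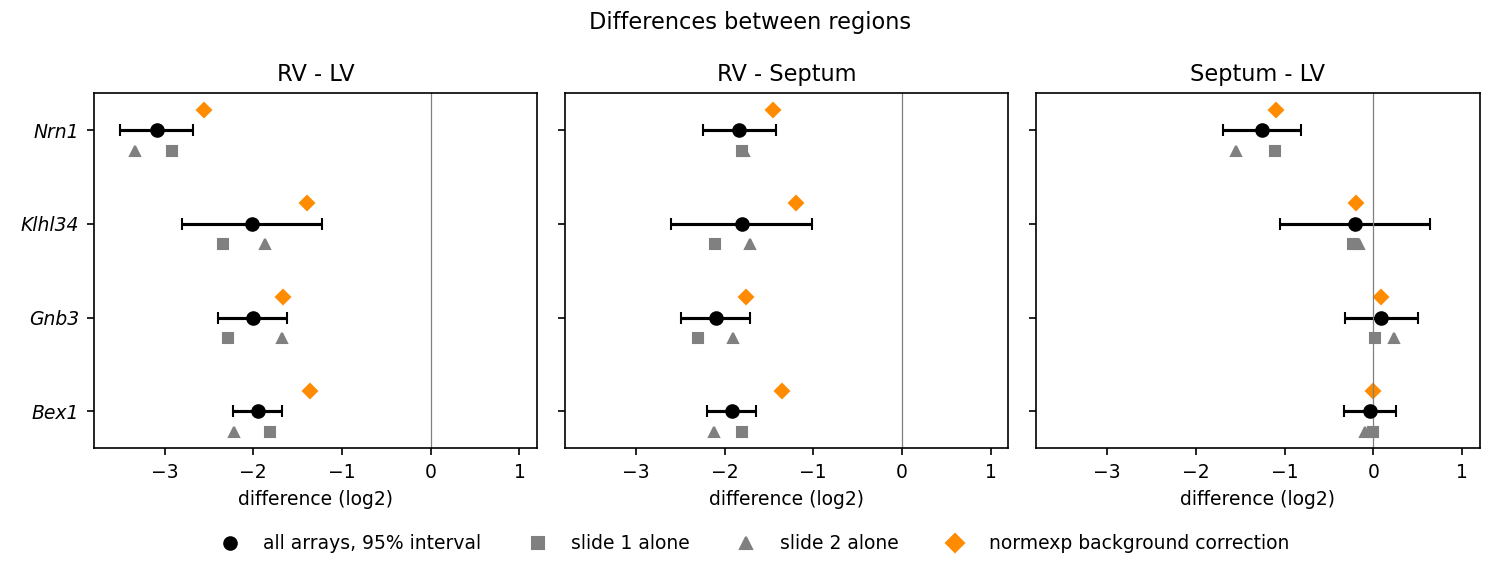
Differences between regions on the log2 scale for the 4 genes, with 95% intervals from all 10 arrays (black), the values within slide 1 and slide 2 (grey), and the values after normexp background correction (orange). The differences of RV from LV and septum are below 0 in every setting shown, whereas in the comparison of septum with LV only the interval of Nrn1 lies away from 0.

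Slide was the other factor tested. Klhl34 was higher on slide 2 than on slide 1 by 0.77 (SE 0.18, 95% interval 0.37 to 1.17; adjusted p = 0.00871 by limma with a term for the slide), and 43.8% of the probes tested were called in this comparison. The increase was 1.02 in the RV, 0.55 in the LV and 0.62 in the septum. Nrn1 differed between slides by -0.11 (adjusted p = 0.6), Gnb3 by 0.15 (adjusted p = 0.431) and Bex1 by 0.16 (adjusted p = 0.178). The labels do not say which animals lay on which slide, so slide and animal cannot be told apart. Within slide 1 alone, the RV minus LV difference was -2.91 for Nrn1, -2.34 for Klhl34, -2.28 for Gnb3 and -1.81 for Bex1. Within slide 2 it was -3.33, -1.87, -1.68 and -2.22 in the same order, with 1 LV array and 2 RV arrays.

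Markers of other cell types were also compared between the RV and the other regions. Over all tested markers of a list, the summed level was higher in every RV array than in any LV or septum array for Schwann cells (2.31 to 2.51 in the RV, 1.80 to 1.97 in the LV, 1.44 to 1.89 in the septum; 7 tested of 8), for mesothelium (3.02 to 4.53 in the RV, with the other ranges as above), for endothelium (6.44 to 6.64, 5.81 to 6.03 and 5.90 to 6.04; 8 of 8), for fibroblasts (9.16 to 9.42, 8.71 to 8.83 and 8.92 to 9.02; 8 of 8) and for macrophages (5.47 to 5.61, 5.04 to 5.33 and 4.87 to 5.38; 6 of 6). Fewer of the single markers passed the test. Between RV and LV, 2 of 7 Schwann cell, 0 of 7 mesothelium, 1 of 8 endothelium, 3 of 8 fibroblast and 0 of 6 macrophage markers were higher, and between RV and septum 3, 6, 1, 1 and 0. These counts, and those of the lists below, stand beside 4.97% of all genes called between RV and LV. Between RV and septum the share was 2.70%. The endothelium marker was Vwf, and the median of that list was 0.055 between RV and LV. None of the markers of these lists was called lower in this fit. With the replicate number as a block, 17.9% of all genes were called between RV and LV. There, 2 endothelium markers were called higher and 2 lower. Of the other lists, 3 Schwann cell, 5 mesothelium, 4 fibroblast and 3 macrophage markers were called higher and none lower. Other lists were lower in the RV. For atrial markers the summed level was lower in every RV array (5.06 to 6.81) than in any septum array. So it was for conduction system markers, at 3.21 to 3.46 in the RV and 3.47 to 3.95 in the septum. Both lists overlapped between RV and LV. Against the septum, 2 of 8 conduction and 0 of 5 atrial markers were called lower. Against the LV, 1 marker of each list was called higher. The neuron markers, of interest because Nrn1 and Bex1 are best known in neurons, overlapped between regions at 5.72 to 6.11 in the RV, 5.57 to 6.22 in the LV and 5.67 to 6.27 in the septum (8 tested of 10). None of the 8 was called in any comparison. The cardiomyocyte markers had a median RV minus LV difference of -0.13, with 9 of 10 lower and 1 called. Their summed level was slightly lower in every RV array than in any LV array. In a fit with the replicate number as a block, 4 of them were called lower, where 17.9% of all genes were called. For adipocytes, 4 of 8 markers (Adipoq, Cidec, Plin1 and Retn) were called higher in the RV than in the LV, and the other 4 were lower without a call. Against the septum, Cidec and Plin1 were called higher, calls lost in 7 and 8 of the 10 fits that left out 1 array. The summed level was 8.40 to 8.60 in the RV, 8.67 to 8.80 in the LV and 8.53 to 8.78 in the septum. A sum follows the brightest genes of its list, so it need not follow these markers. The part of the cell makeup in the low RV values was not tested.

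The families of the 4 genes were then examined, with 1 probe per gene. Among G protein subunits, 25 of 32 were tested, and 2 were higher in the RV than in the LV and none lower (8% called, against 4.97% of all genes tested), with a median difference of -0.01 against -0.05 over all genes tested. Gng8, a gamma subunit, was 1.88 higher in the RV (SE 0.24, adjusted p = 0.0046), with levels of -1.47, -1.47, -0.72 and -1.20 in the RV and -2.90, -3.31 and -3.07 in the LV, where it was well above background on 2 of 3 arrays. Gnai1, an alpha subunit that inhibits adenylyl cyclase, was 1.02 higher (adjusted p = 0.0359), a call that was lost in 6 of the 10 fits that left out 1 array. The other beta subunits did not share the Gnb3 pattern: Gnb1, Gnb2, Gnb4 and Gnb5 differed by -0.01, -0.00, 0.17 and -0.21, and none was called. Between RV and septum, none of the 25 subunits was called by limma. Of the regulators and effectors of G proteins, which include the RGS proteins, receptor kinases and the GIRK channels, none of 30 tested was called in either comparison, and the median RV minus LV difference was 0.087. With the replicate number as a block, calls over all genes rose to 17.9% between RV and LV and 8.71% between RV and septum. In that fit 5 subunits were higher and 1 lower, and 3 regulators were higher and 4 lower, between RV and LV; between RV and septum, 1 subunit was higher, and 2 regulators were higher and 1 lower.

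Among neuritin and the neurotrophin genes, 9 of 10 were tested. Nrn1l, the paralog of Nrn1, differed by 0.29 between RV and LV and by 0.21 between RV and septum and was not called. Sort1, which encodes the sorting receptor sortilin that binds the precursors of neurotrophins, exceeded its LV level in the RV by 0.75 (adjusted p = 0.0152) and its septum level by 1.08 (adjusted p = 0.0048). Its 2 other probes differed between RV and LV by 0.74 (adjusted p = 0.132) and -0.21 (adjusted p = 0.702), so the probes did not show 1 direction. The call against the LV was lost without LV replicate 1 or LV replicate 2. Ntrk2, the receptor for the neurotrophin Bdnf, was 0.42 higher in the RV than in the septum (adjusted p = 0.0444), a call that was lost when any 1 of the 10 arrays was left out. Bdnf and Ntf3 differed between RV and LV by -0.37 and 0.12 and neither was called. The list had 1 of 9 genes called higher and none lower between RV and LV, with a median of 0.29, and 2 of 9 called higher between RV and septum, beside 4.97% and 2.70% of all genes.

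In the kelch-like family and the cullin 3 ligase, 41 of 50 genes were tested and their differences were small beside that of Klhl34. Between RV and LV, 1 was higher and 2 were lower (7.32% called, near the 4.97% of all genes), with a median of -0.07 and a lowest value of -0.43. Klhl31, a kelch-like protein of striated muscle, was lower by -0.36 (adjusted p = 0.0165), Ivns1abp by -0.38 (adjusted p = 0.046), and Klhl13 was higher by 0.54 (adjusted p = 0.0266). The call of Ivns1abp was lost when any 1 array was left out, and those of Klhl31 and Klhl13 in 4 and 6 of the 10 such fits. Between RV and septum, Klhl31 alone was called, at -0.30 (adjusted p = 0.0434), and this call was lost in all 10 such fits. Cul3, the scaffold of the ligase, differed by -0.27 between RV and LV and Rbx1, its RING subunit, by -0.14, and neither was called. With the replicate block, 2 genes of the list were higher and 10 lower between RV and LV, and 1 was higher and 5 lower between RV and septum. In that fit 17.9% and 8.71% of all genes were called in these comparisons. Of all genes, 1065 were called higher and 1554 lower between RV and LV, and 614 and 662 between RV and septum.

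**Figure D3:**
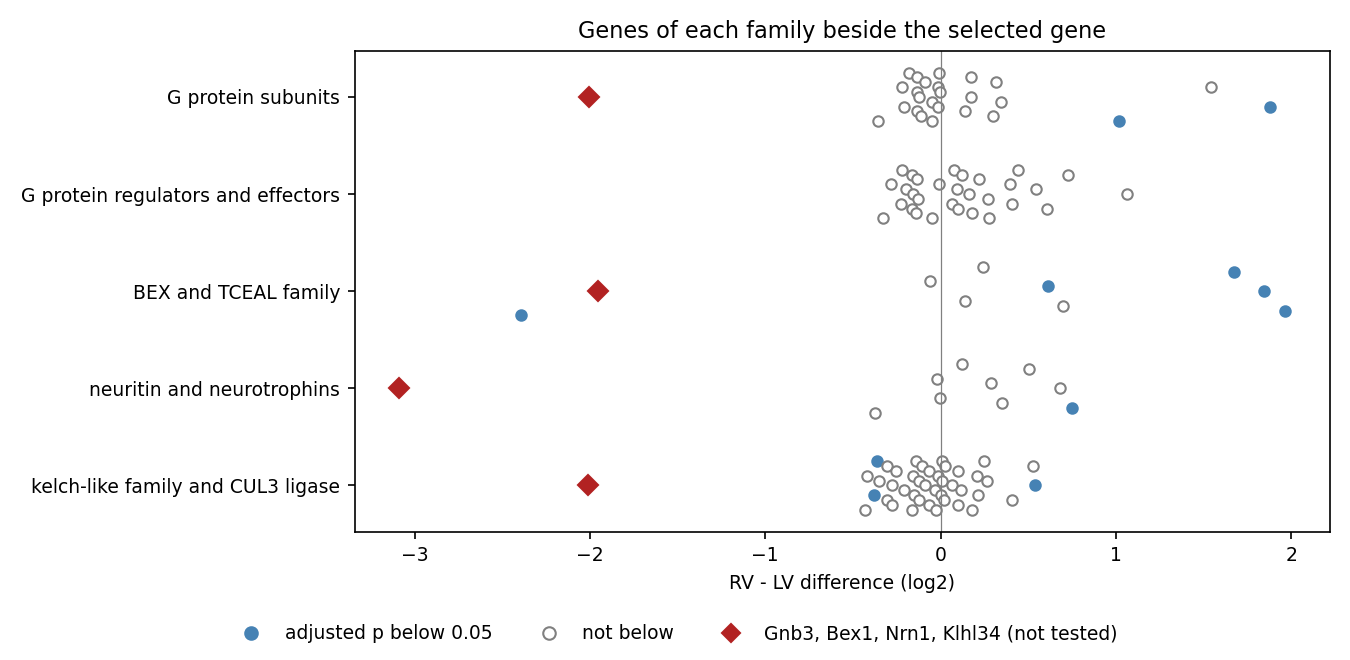
RV minus LV difference (log2) of each gene tested in the families of Gnb3, Bex1, Nrn1 and Klhl34, 1 point per gene; filled points have an adjusted p below 0.05 and diamonds are the 4 selected genes, which were not tested. Apart from Tceal7, drawn at its fitted -2.39 although 3 of its 4 RV arrays were not well above background, every family member tested lies above -0.5.

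Of the 5 gene lists, the BEX and TCEAL family had the largest share of called genes in both comparisons with the RV. These genes encode small related proteins, and Bex1 and 10 of the 11 others on the list lie on the X chromosome. Of the 11 genes beside Bex1, 9 were tested; between RV and LV, 4 were higher and 1 lower, and between RV and septum 2 were higher and 1 lower. The shares, 5 of 9 and 3 of 9, stand beside 4.97% and 2.70% of all genes. Both shares include Tceal7, which passed the filter only through the LV and septum, where it is high. The share against the septum includes Bex3, whose call there was lost in all 10 fits that left out 1 array. Tceal3 and Tceal6 count as 2 genes, although cross-hybridisation of their probes was not tested. The median difference was 0.61 between RV and LV and 0.31 between RV and septum. Bex2 and Bex6 were not tested, because no region had them well above background on all of its arrays.

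Tceal7 was the family member that was low in the RV. Its level was -4.93, -5.23, -4.28 and -4.61 in the RV, -2.76, -1.83 and -2.52 in the LV and -2.78, -0.92 and -2.44 in the septum. The RV arrays lay below all others, and only 1 of 4 RV arrays was well above background, against all LV and septum arrays. The probe was tested because it passed the filter in the LV and septum, where it is high. Its RV level is therefore known mainly as an upper limit. Each RV array below background was then set to that array's lowest level well above background, or to its own level where higher. Tceal7 was then 4.53-fold lower in the RV than in the LV and 5.66-fold lower than in the septum. These folds are not strict limits. On RV replicate 4 the probe was not well above background at -4.61, while another probe was at -5.23. The fit to the measured values gave -2.39 between RV and LV (SE 0.43, adjusted p = 0.0189) and -2.72 between RV and septum (SE 0.43, adjusted p = 0.0172). The first call was lost when any 1 of LV replicates 1 to 3 or RV replicate 4 was left out, with values from -2.59 to -2.12, and the second without RV replicate 1 or RV replicate 2.

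Bex4 went the other way. Its level was -1.09, -1.34, -1.34 and -1.46 in the RV, -2.35, -3.15 and -3.44 in the LV and -3.01, -3.76 and -3.39 in the septum, and 2 of 3 LV arrays were well above background. Every RV array was above every LV and septum array. The difference was 1.67 between RV and LV (SE 0.25, adjusted p = 0.00936) and 2.08 between RV and septum (SE 0.25, adjusted p = 0.00578), and both calls held in each of the 10 fits that left out 1 array.

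Tceal3 and Tceal6 formed another pattern. They were higher in the RV than in the LV by 1.97 (SE 0.30, adjusted p = 0.00956) and 1.84 (SE 0.27, adjusted p = 0.00808), but differed from the septum by 0.31 (adjusted p = 0.731) and 0.35 (adjusted p = 0.639). Their septum arrays were at -0.56, -1.41 and -1.02 for Tceal3 and at -0.23, -1.09 and -0.51 for Tceal6, above all LV arrays of the same gene, and the septum minus LV difference was 1.66 and 1.49 (adjusted p = 0.353 for both). These genes are close relatives, and whether their probes cross-hybridise was not tested. Bex3 in the RV exceeded the LV by 0.61 (adjusted p = 0.00665) and the septum by 0.42 (adjusted p = 0.0434), where the call was lost in all 10 fits without 1 array, and its other probe differed by 0.28 from the LV (adjusted p = 0.556).

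**Figure D4:**
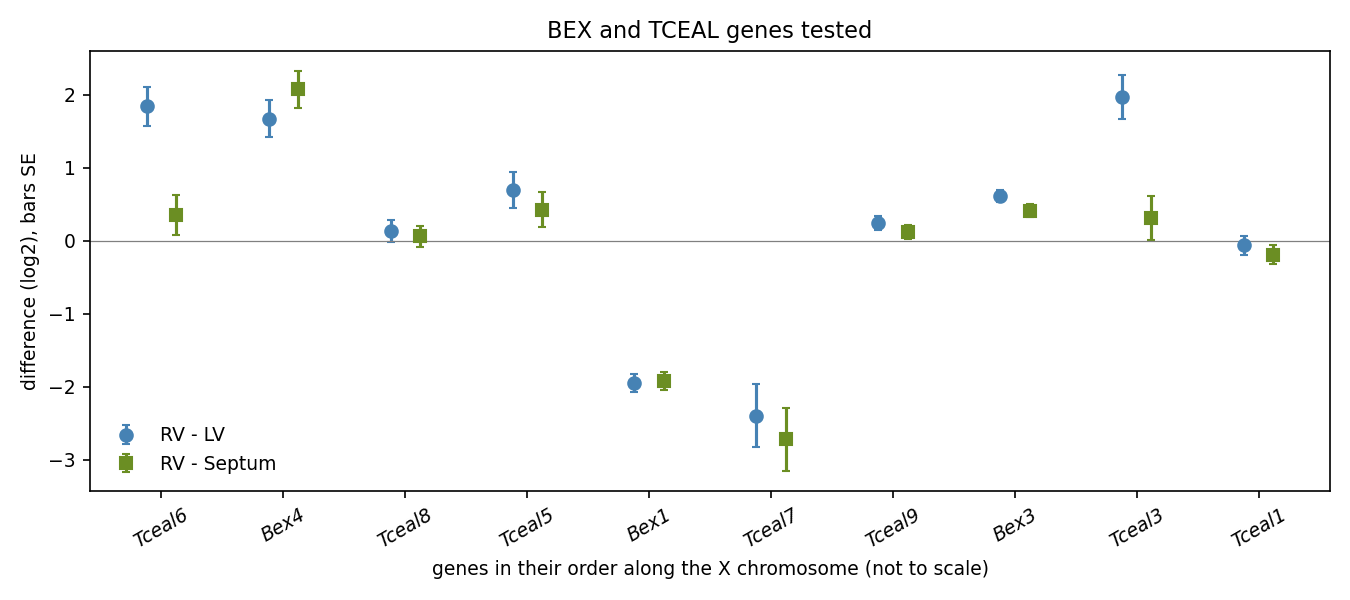
Differences of RV from LV (circles) and from septum (squares) on the log2 scale, with SE, for Bex1 and the tested BEX and TCEAL genes in their order along the X chromosome, not to scale. Bex1 (-1.95 and -1.92) and Tceal7 (-2.39 and -2.72) lie well below 0, Tceal7 with only 1 of 4 RV arrays well above background, and the genes next to them on either side lie above it.

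The position of the genes was taken from RefSeq annotation of GRCm38.p6. Among the tested genes in order along the X chromosome, Bex1 lay between Tceal5, which differed by 0.70 between RV and LV without being called, and Tceal7. The starts of Bex1 and Tceal7 lie 8.5 kb apart on opposite strands. Of the tested genes among the 3 nearest protein-coding neighbours on each side of the other genes, none was called. The differences between RV and LV ran from -1.63 for Ppp1r3g (adjusted p = 0.158) to 0.37 for F13a1 beside Nrn1 on chromosome 13, from -0.23 to 0.03 beside Klhl34 on the X chromosome, and from -0.27 to 0.51 beside Gnb3 on chromosome 6. Over the 451 other X-linked genes tested, 28 were called higher and 7 lower in the RV than in the LV, with a median of -0.03; 7.76% were called, beside 4.97% of all genes, of which 459 were higher and 269 lower.

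Promoter windows, from 250 bases before to 50 bases after the start of the gene, were taken from RefSeq for 2 of the 4 genes, Bex1 and Klhl34, and for Tceal7 and Bex4, which are shown because they are the called genes among its neighbours, Tceal7 lower and Bex4 higher in the RV. Capitals mark matches, on either strand, to any of 9 short motifs. These were the TATA box, TATAAA, the CCAAT box, the GC box, GGGCGG, the E-box, CACGTG, the cyclic AMP response element TGACGTCA, the T-box element AGGTGTGA, the GATA element AGATAA, the Iroquois element ACANNTGT and the MEF2 core TAAAAATA.
Bex1, chrX:136215464-136215763, minus strand: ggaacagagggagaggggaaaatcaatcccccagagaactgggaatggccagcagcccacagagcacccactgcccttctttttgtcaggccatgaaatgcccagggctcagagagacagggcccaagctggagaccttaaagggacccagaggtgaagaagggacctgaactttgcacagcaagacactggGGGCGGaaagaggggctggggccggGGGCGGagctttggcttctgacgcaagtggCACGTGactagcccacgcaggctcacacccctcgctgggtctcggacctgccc
Bex4, chrX:136138746-136139045, plus strand: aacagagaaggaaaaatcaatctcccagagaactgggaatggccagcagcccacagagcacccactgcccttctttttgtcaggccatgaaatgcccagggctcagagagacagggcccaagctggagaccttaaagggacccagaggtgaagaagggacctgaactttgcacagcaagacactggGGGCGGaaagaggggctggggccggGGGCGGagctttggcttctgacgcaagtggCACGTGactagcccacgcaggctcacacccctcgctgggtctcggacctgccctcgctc
Tceal7, chrX:136223791-136224090, plus strand: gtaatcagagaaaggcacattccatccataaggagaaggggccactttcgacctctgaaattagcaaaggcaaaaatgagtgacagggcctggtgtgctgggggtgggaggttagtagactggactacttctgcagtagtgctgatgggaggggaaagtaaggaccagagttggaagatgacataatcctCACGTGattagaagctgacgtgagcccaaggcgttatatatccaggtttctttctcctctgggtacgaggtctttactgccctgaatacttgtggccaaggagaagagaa
Klhl34, chrX:157818185-157818484, plus strand: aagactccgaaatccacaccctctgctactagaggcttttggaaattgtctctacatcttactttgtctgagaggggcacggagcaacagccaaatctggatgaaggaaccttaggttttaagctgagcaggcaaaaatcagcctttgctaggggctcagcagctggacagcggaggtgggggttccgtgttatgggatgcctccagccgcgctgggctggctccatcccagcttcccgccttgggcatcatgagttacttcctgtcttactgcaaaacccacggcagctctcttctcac

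The Bex1 and Bex4 windows were nearly the same sequence, although the 2 genes differed between regions in opposite directions. They shared an unbroken run of 271 bases, and at a shift of 6 bases 288 of 294 bases were the same. Both held 2 GC boxes and 1 E-box, the E-box starting 3 bases before the start of Bex1 and 9 bases before that of Bex4. The Tceal7 window held an E-box 60 bases before its start, shared no run with Bex1 longer than 9 bases, and had 92 of 297 bases the same at the best shift. The Klhl34 window held none of the 9 motifs. Of 32817 promoter windows of this length in the table, 7.15% held the E-box and 35.6% the GC box. A match describes letters in the window and not a bound site.

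The genes whose pattern across the 10 arrays was most like each of the 4 were found by the root mean square (RMS) difference between levels, each centred on the gene's own mean, over 14624 genes. For Gnb3 the nearest included Bex1 at 0.266 and Myot, which encodes the Z-disc protein myotilin, at 0.300. Ptgds, a prostaglandin D synthase, followed at 0.340 and the growth factor Fgf6 at 0.341. For Bex1 they were Gnb3, Tmem144 at 0.289, Igfals at 0.322, Slc17a7, a vesicular glutamate transporter, at 0.378, and the aquaporin Aqp8 at 0.389. For Klhl34 they included Ankrd23, an ankyrin repeat protein of muscle, at 0.237, Ankrd45 at 0.255, Aqp8 at 0.261 and Myot at 0.315. Klhl34 and these 4 genes were all highest in replicate 3 and lowest in replicate 1 among the RV arrays.

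Nrn1 had no close match. The nearest genes included Bex1 at 0.576, Gnb3 at 0.660, Fgf6 at 0.711 and Ptgds at 0.739. All 4 had a septum level within 0.22 of their LV level, so the intermediate septum of Nrn1 was not found among them. Among the 4 genes the pair Gnb3 and Bex1 was most alike, and Nrn1 and Klhl34 were least alike at 0.783. These distances rest on arrays that share tissue pieces of the same regions, and the low RV level that they have in common is what selected the 4 genes.

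**Figure D5:**
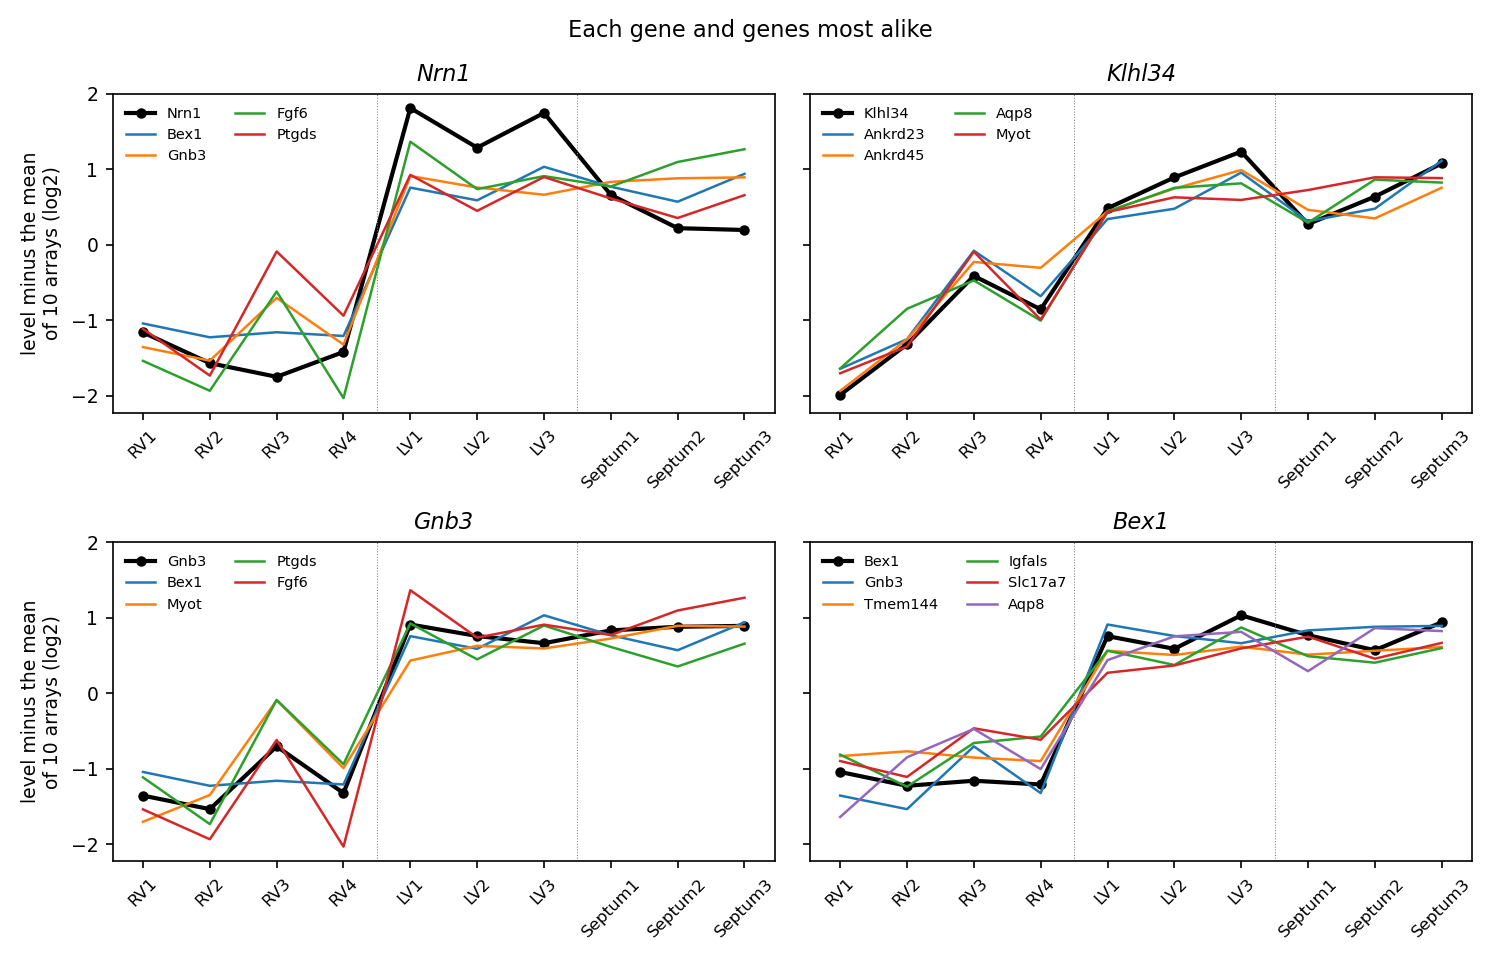
Levels of each of the 4 genes (black) and of the genes named as most like it (colours) on the 10 arrays, in log2 units around each gene's own mean. The black line of Nrn1 drops from the LV to the septum while the coloured lines stay near their LV level; Klhl34 and the genes drawn with it have their lowest value in RV replicate 1.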

How the data were processed

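Total RNA of each region was labelled with Cy3 and hybridised to 1-colour Agilent mouse arrays. The authors deposited scanner intensity values per spot, made with Agilent Feature Extraction 11.5.1.1, which subtracts background and sets flags, and a table of log2 values that matched the authors' own intensity values scaled by the 75th percentile, within 0.05 for 100% of values. Here, the processed intensity was averaged over the spots of a probe, without outlier spots, divided by the 75th percentile of the array and put on the log2 scale. One RV array's file held rounded signals. No depth exists for arrays, and their number limits the precision.

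Regions and replicate numbers came from the sample titles. Models with 1 mean per region over all 10 arrays were fitted with limma 3.58.1 in R 4.3.3, two-sided, with Benjamini-Hochberg adjustment over 30243 of 56605 probes, those that cleared background on all arrays of some region. The slide comparison added a slide term. Of the probes, 58.3% could be named by RefSeq accession, and where a gene had several, the probe of highest mean signal was used. The fitting script was tested on simulated data.

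The 4 genes, the gene lists and the motifs were chosen with earlier results of these data known. Genes named were the 4, the called genes of each related list (at most 4 per list and comparison, by absolute difference) and the 5 most alike. A few genes that these rules name are not reported here. Beta subunits, Nrn1l, neurotrophins, Cul3, Rbx1, Tceal5 and chromosomal neighbours were named after their values were seen. The closest relative by protein identity was not determined here. A summed marker level is the log2 of the sum of the relative signals of the list.

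Arrays with the same replicate number in different regions deviated together from their region means (9 pairs, r from 0.36 to 0.64). Pairs on the same slide with different numbers had r from 0.09 to 0.58, and slide and number are not separated here. All 9 same-number pairs met a criterion of r over 0.1. Pairs with different numbers on the same slide reached 0.58, so this criterion cannot show that the numbers pair the arrays. The labels do not say that the numbers mark an animal. The main fits used no block, and the replicate block was run as an alternative. RV replicate 4 has no partner, and the replicate block fits it exactly. Nothing says beyond the design text that replicates are separate animals, so p-values measure the spread between these samples. Alternatives were other scalings, normexp correction on the median spot signal (the mean was not in the files), the authors' table, no filter on dim probes, slide and replicate blocks, ANOVA with Tukey's correction, and leaving out each array.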

Additional observations from a re-analysis of the deposited data

How the results depend on the processing

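The differences of the 4 genes between RV and LV, and between RV and septum, were below 0 in all 80 values of each comparison. Low RV values selected the genes, so this sign is no test of them. Some values could not change: RV minus LV is the same without a septum array, and RV minus septum without an LV array. Of the values, 7 and 5 moved by more than the replicate spread. With normexp correction, the RV minus septum differences were -1.45 for Nrn1, -1.20 for Klhl34, -1.76 for Gnb3 and -1.36 for Bex1. The Bex1 difference of septum minus LV changed sign without septum replicate 2 (0.062) and without LV replicate 3 (0.087), the range over left-out arrays being -0.14 to 0.087. Each gene had 1 probe, so no other probe could be tried, and the ANOVA was run for counts only. The number of called probes depended on the model. Between RV and LV it was 1166, and it was 683 with median scaling, 269 without the filter, 319 within slide 2, 5329 with slide as a block, 5796 with a random block for the replicate number and 3998 by ANOVA with Tukey's correction before adjustment. Leaving out 1 array gave 390 (without LV replicate 2) to 979, and 392, 468, 488, 649 and 706 without LV replicate 1, LV replicate 3 or RV replicates 4, 2 and 1. Between RV and septum it was 628, and 112, 171, 2642, 3184 and 2754 under the same settings from no filter on, with 118 (without septum replicate 2) to 539 when 1 array was left out. Between septum and LV it was 0, and 2 with quantile normalization, 2 with normexp, 14 with slide as a block, 1 within slide 2, 69 with the random block, 435 and 168 by ANOVA before and after adjustment, and 0 to 3 when 1 array was left out. The slide count, 13238, stayed within 1.5 times. With the replicate block, which pairs arrays by number, the counts were 4514 between RV and LV and 2155 between RV and septum, and no probe was called between septum and LV; the adjusted p of Nrn1 there was 0.128. The cause was not tested. Of the calls between RV and LV, 59.7% were higher in the RV, and 75.8% with scaling on detected probes; between RV and septum 58% were, and 73% with median scaling. The balance turned with the model: with slide block, replicate block, random block and ANOVA before adjustment, 41.1%, 41.8%, 42.5% and 40.8% were higher between RV and LV, and 46%, 47.1%, 46.4% and 41.3% between RV and septum. The slide calls were 44.8% higher on slide 2, and 78% with median scaling. Without the filter the median difference of all probes between RV and LV was -0.11. The low RV signals of Klhl34 and Bex1, and the dependence of their differences on the background correction, limit how well their folds are known.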
